A study of Mus musculus with 6 samples.

Results

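The Hox cluster genes encode homeodomain transcription factors that lie side by side in 4 clusters, and the set described here is the 23 of the 39 mouse Hox cluster genes that the authors' normalized expression table lists as protein-coding under a name of the form Hox, cluster letter, number. Their raw read counts were taken from a count table of 55421 genes by gene identifier, and 16 of the 23 were among the 19042 genes with enough reads for a test. RNA came from entire lung lobes of E18.5 mouse embryos, taken out with the lungs still unaerated. The 3 Mll3 KO lungs carried the allele written Mll3FDC/FDC on both chromosomes, and the 3 wild-type lungs served as their controls. Mll3 is the protein encoded by Kmt2c, a methyltransferase that places monomethylation on lysine 4 of histone H3, chiefly at enhancers. The comparison asks how loss of this enzyme affects RNA levels in the lung before birth.

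Hox genes with low numbers sit at the 3′ end of each cluster and are switched on early and toward the head, while genes with high numbers are switched on later and further toward the tail, so that each level of the body axis carries its own combination. Genes with the same number in different clusters are paralogs and often act together. In the mouse lung, Hox expression is mainly a feature of the mesenchyme, and Hoxa5 is needed there: mouse pups without it die around birth with breathing failure, and loss of all group 5 paralogs together impairs branching. Once set, Hox expression is kept on by trithorax-type proteins such as the Kmt2a product MLL1 and kept off by Polycomb repressive complexes.

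The libraries held 20158689 to 23305306 counted reads, of which 4267 to 5625 fell on the 23 Hox genes, or 0.0190% to 0.0241% of the reads. Kmt2c RNA averaged 158 ± 14.2 CPM (counts per 1000000 reads, scaled by the TMM method) in Mll3 KO lungs and 168 ± 9.58 CPM in wild-type lungs (SD, n = 3 each), a log2 fold change of −0.09 with an adjusted p of 0.74 in edgeR's quasi-likelihood test with Benjamini-Hochberg adjustment. What the allele removes from the gene is not given in the labels, so the level over the whole gene does not check the genotype. Among all genes tested, 12 (0.0630%) were higher and 58 (0.305%) were lower in Mll3 KO lungs at an adjusted p below 0.05. Some libraries stood apart from the rest. Mll3 KO library 3 had 59951 Xist reads and 4 reads of Y-linked genes. In the other 5 libraries Xist counts ran from 6 to 27 and Y-linked counts from 7414 to 9300. By these reads, Mll3 KO library 3 came from a female embryo and the others from males. Sex was thus mixed among Mll3 KO lungs only. Summed skeletal muscle markers reached 484 CPM in Mll3 KO library 2 and 509 CPM in wild-type library 1, against 15.1 to 23.3 CPM in the other 4 libraries. Summed neuron and Schwann markers were also highest there, at 66.9 and 51.3 CPM, against 23.6 to 28.7 CPM in the other 4. Values without these 2 libraries are given beside the results they move. Summed smooth muscle markers were 933 CPM in wild-type library 1, against 308 to 465 CPM in all others.

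Lungs at E18.5 expressed the low-numbered and middle Hox genes of the A and B clusters and almost none of the high-numbered ones. To compare genes, levels were expressed per length as TPM (length-corrected counts scaled to the same total in each library), averaged over all 6 libraries. The A cluster on chromosome 6 gave 60.8% of the summed TPM of the 23 genes and the B cluster on chromosome 11 gave 37.8%. The C cluster on chromosome 15 gave 0.427% and the D cluster on chromosome 2 gave 0.938%. By paralog number, group 5 alone gave 48.6%, followed by group 4 with 15.6%, group 3 with 13.2% and group 2 with 11.3%. From there the share dropped to 5.11% for group 6, 3.08% for group 7, 1.52% for group 8 and 0.358% for group 9, and no gene of groups 10 to 13 was in the set.

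**Figure D1:**
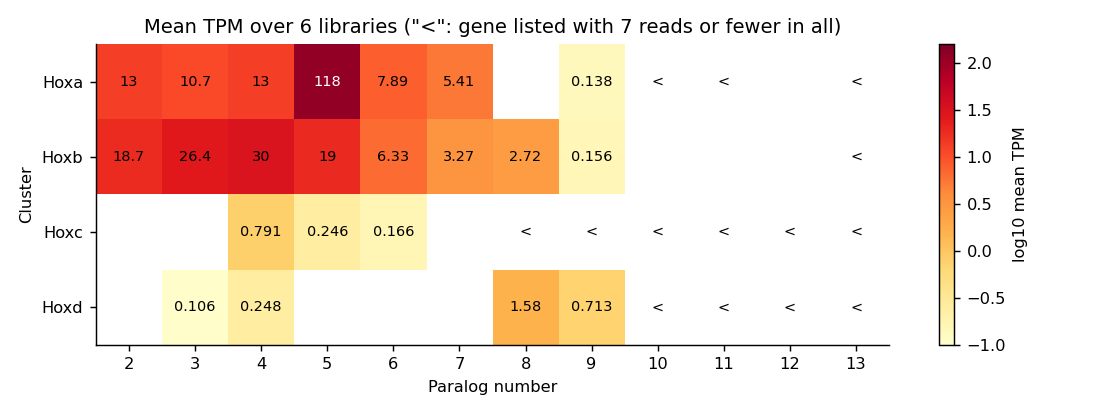
Mean level of the Hox cluster genes of groups 2 to 13 over all 6 libraries, in TPM on a log colour scale, with clusters in rows and paralog number in columns. The level is highest at Hoxa5 (118 TPM), stays above 1 TPM through group 8 in the B cluster, and genes outside the set had at most 7 reads in all libraries together.

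The 16 Hox genes outside the set had 28 reads between them in all 6 libraries. Hoxd10 had the most, with 7, and Hoxb13, Hoxc9, Hoxc10, Hoxc12, Hoxd11 and Hoxd13 had 0. A count of 0 allows up to 3 reads, which is 0.129 to 0.149 CPM per library, and this limit covers counting error only. The missing genes included Hoxb1 and Hoxd1 at the 3′ end, with 2 and 3 reads, together with Hoxc8, Hoxc9 and every gene from number 10 upward.

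Hoxa5 was the most abundant member by a wide margin. It lies on chromosome 6 at 52201754 to 52204587 on the minus strand (GRCm38) and averaged 118 TPM over the 6 libraries, 41.8% of the summed level of the set. Hoxb4 (30.0 TPM), Hoxb3 (26.4 TPM), Hoxb5 (19.0 TPM) and Hoxb2 (18.7 TPM) came next, then Hoxa2 at 13.01 TPM, Hoxa4 close behind it and Hoxa3 at 10.7 TPM. These 8 genes were the members above 10 TPM. Neighbours in this order were often within their spread: Hoxb4 had 31.7 ± 0.741 TPM in Mll3 KO lungs and 28.2 ± 3.06 TPM in wild-type lungs, and Hoxb3 had 28.0 ± 0.984 TPM in Mll3 KO lungs and 24.9 ± 3.92 TPM in wild-type lungs. Members between 1 and 10 TPM included Hoxa6 (7.89), Hoxb6 (6.33), Hoxa7 (5.41), Hoxb7 (3.27), Hoxb8 (2.72) and Hoxd8 (1.58), and 8 members were under 1 TPM.

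**Figure D2:**
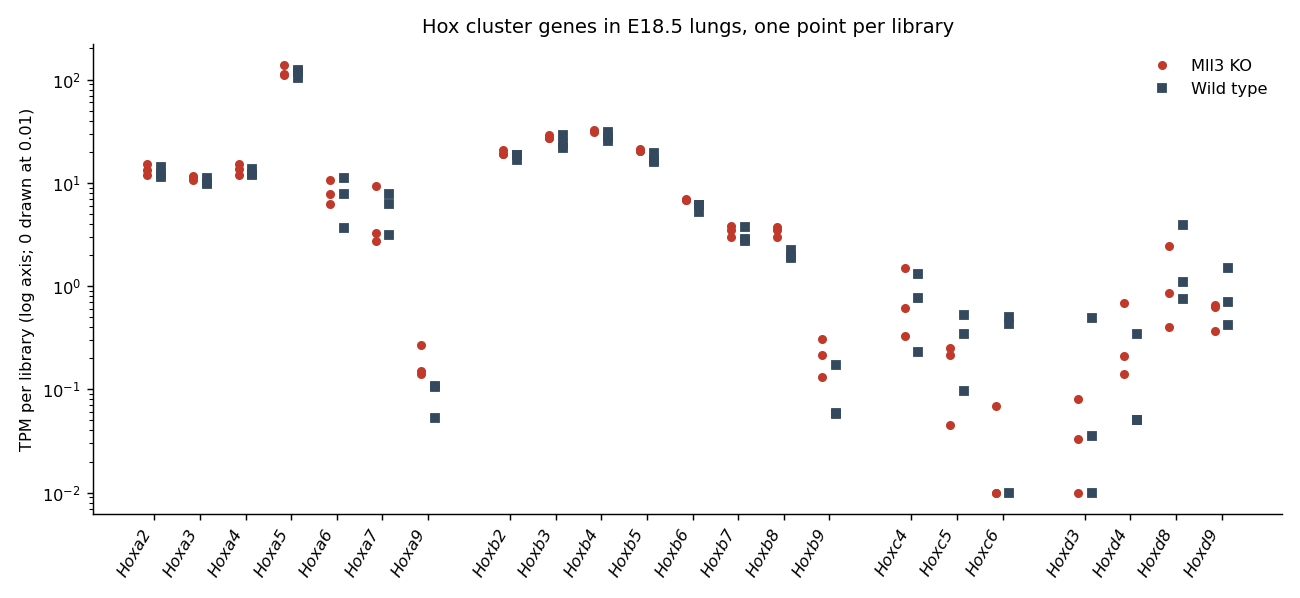
Level of the members of groups 2 to 9 in TPM on a log axis, with 3 Mll3 KO libraries and 3 wild-type libraries as separate points. Points of both genotypes lie close together for the abundant A and B cluster genes and spread widely for the C and D cluster genes.

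The group 5 paralogs are close in sequence, and a shared stretch of their homeobox region is printed to show how far 75-base reads could tell them apart. The 75 coding bases below are those of Hoxa5 at chr6:52202730-52202804 on the minus strand, Hoxb5 at chr11:96304914-96304988 on the plus strand and Hoxc5 at chr15:103015243-103015317 on the plus strand (GRCm38), each written 5′ to 3′, with capitals at the bases that differ from Hoxa5.
Hoxa5: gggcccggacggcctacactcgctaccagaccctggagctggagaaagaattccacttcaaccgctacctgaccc
Hoxb5: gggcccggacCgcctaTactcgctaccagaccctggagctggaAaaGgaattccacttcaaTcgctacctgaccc
Hoxc5: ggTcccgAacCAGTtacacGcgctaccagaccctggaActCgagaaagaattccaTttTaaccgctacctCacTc
Hoxb5 differed from Hoxa5 at 5 of the 75 bases and Hoxc5 at 13, and no member shared a whole 75-base stretch with a paralog of the same number. Reads of the read length used could thus be placed on 1 of the 3 genes in exact matching, even in this conserved part. The annotation itself overlaps on the same strand for 6 members: Hoxd3 shared 62.3% and Hoxd4 52.3% of exon bases with each other or with the predicted gene Gm28230, Hoxa2 shared 15.04% and Hoxa3 8.01% with Gm28308, Hoxc5 shared 5.37% with Hoxc10, and Hoxa9 shared 1.52% with Mir196b. Counts of Hoxd3 and Hoxd4 are uncertain for this reason.

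No member of the set passed the test between genotypes. Of the 16 tested members, 0 had an adjusted p below 0.05 in edgeR's quasi-likelihood test with Benjamini-Hochberg adjustment over all genes, where 0.368% of all tested genes did. DESeq2 and limma voom also called 0. At an unadjusted p below 0.05 there were 2 members, Hoxb8 among them, or 12.5% of those tested, where 10.7% of all genes were. The log2 fold changes ran from −0.71 to 0.71, and their median was 0.10, beside 0.01 over all genes. A positive fold change was found in 13 of the 16, or 81.2%, where 52.6% of all genes had one, and over the alternatives run it ranged from 10 without Mll3 KO library 1 to 15 without Mll3 KO library 3. The 3 libraries of each genotype did not overlap for 5 members, among them Hoxb4, Hoxb5, Hoxb6 and Hoxb8, each higher in Mll3 KO lungs. That is 31.2% of the tested members, where 17.0% of all genes did not overlap and 8.60% did so on the higher side. The 95% confidence interval stayed within a 1.5-fold change in either direction for 9 members, whereas it reached a 2-fold change for Hoxa7, Hoxb8, Hoxc4 and Hoxd8.

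**Figure D3:**
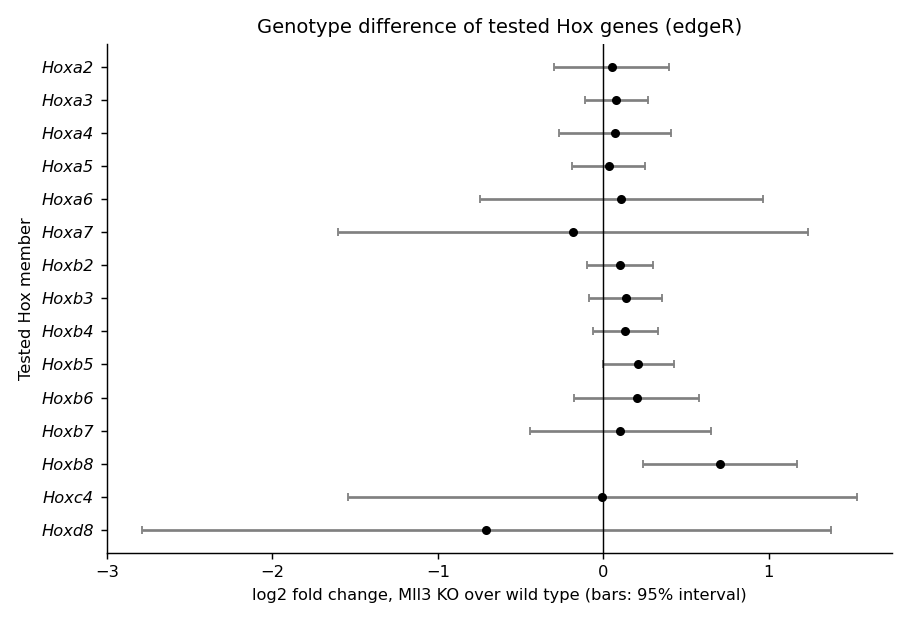
Log2 fold change of tested members of groups 2 to 8, Mll3 KO over wild type, with its 95% confidence interval from edgeR, by cluster. Intervals of the abundant genes are narrow around zero, and that of Hoxb8 lies above zero. Those of Hoxa7, Hoxc4 and Hoxd8 span more than a 2-fold change in either direction.

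The B cluster genes leaned the same way, and so did most A cluster genes. A positive log2 fold change was found in 52.6% of all genes and in 6 of the 7 tested A cluster genes, whose median was 0.07. All 7 tested Hoxb genes had one, between 0.10 and 0.71 with a median of 0.13, and none passed the test. Each stayed positive when any 1 library was left out, but several were much smaller: without wild-type library 1 the value was 0.054 for Hoxb3, 0.064 for Hoxb4 and 0.058 for Hoxb2, without Mll3 KO library 3 it was 0.056 for Hoxb2 and 0.0057 for Hoxb7, without wild-type library 2 it was 0.023 for Hoxb7 and 0.10 for Hoxb6, and without wild-type library 3 it was 0.029 for Hoxb7. Without both muscle-rich libraries Hoxb3 had 0.083, Hoxb4 0.061 and Hoxb7 0.26. Summed over the cluster, Hoxb genes gave 114.1, 113.5 and 114.0 TPM in Mll3 KO lungs, against 91.9, 108.6 and 97.3 TPM in wild-type lungs. The 3 Mll3 KO lungs were nearly equal and lay above every wild-type lung, whose own values differed more. Of all tested genes, 8.60% did not overlap with Mll3 KO lungs higher. Hoxa sums overlapped, at 202.9, 167.8 and 157.8 TPM in Mll3 KO lungs, against 150.4, 177.5 and 171.4 TPM in wild-type lungs. In bulk RNA, fewer cells of a type and less RNA per cell cannot be told apart. The 9 fibroblast markers, all with reads, summed to 9496 to 11495 CPM in Mll3 KO lungs and 11941 to 13480 CPM in wild-type lungs. Without Fn1, the most abundant of them, the ranges overlapped. They were 6661 to 7750 CPM in Mll3 KO lungs and 7644 to 8458 CPM in wild-type lungs, and only Mll3 KO library 2 reached the wild-type range. Of the 9 markers, 1 had a positive log2 fold change, and their median was −0.16. Tcf21, Pdgfra and Pdgfrb, also mesenchymal genes, had −0.02, −0.03 and 0.07, while Col1a1, Col1a2 and Mfap4 had −0.28, −0.18 and −0.16. The 8 cartilage markers, also all with reads, summed to 43.9, 51.8 and 44.4 CPM in Mll3 KO lungs, against 26.6, 33.0 and 42.8 CPM in wild-type lungs, without overlap. Sox9 made up most of each sum. It had 29.4, 38.5 and 37.8 CPM in Mll3 KO lungs, against 22.4, 27.8 and 38.5 CPM in wild-type lungs, with overlap. None of the 5 cartilage markers tested passed the test. All 5 had a positive log2 fold change, where 52.6% of all genes did. An unadjusted p below 0.05 in edgeR's quasi-likelihood test was found for 3, where 10.7% of all genes had one. Mesothelium markers summed to 507 to 653 CPM in Mll3 KO lungs and 716 to 875 CPM in wild-type lungs. Endothelium markers summed to 1709 to 1810 CPM in Mll3 KO lungs and 1830 to 2155 CPM in wild-type lungs. Of these, 3 of 6 mesothelium and 1 of 6 endothelium markers had a positive log2 fold change. Sums of smooth muscle, skeletal muscle, neuron and Schwann, epithelium and blood markers overlapped. The part of any of these lists in the Hoxb values was not tested.

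Hoxb8, which in mice is active in the spinal cord and in myeloid progenitors, had the smallest p of the set. Its levels were 2.34, 2.89 and 2.75 CPM in Mll3 KO lungs, against 1.81, 1.52 and 1.55 CPM in wild-type lungs. Every Mll3 KO library lay above every wild-type library. The log2 fold change was 0.71 ± 0.21 (SE; 95% confidence interval 0.24 to 1.17), with an unadjusted p of 0.00702 and an adjusted p of 0.233 in edgeR's quasi-likelihood test with Benjamini-Hochberg adjustment. The sample titles begin with either of 2 numbers, which the labels do not explain: Mll3 KO library 1 shares the first with wild-type libraries 1 and 2, and Mll3 KO libraries 2 and 3 share the second with wild-type library 3. Within these title groups the difference in log2(CPM + 0.5) was 0.40 in the first and 0.69 in the second. Over the alternatives tried, the adjusted p of Hoxb8 ran from 0.154 to 0.692.

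Because Hoxb8 and Hoxa5 are the members with the smallest p and the highest level, the 250 bases before their RefSeq start sites are printed here (GRCm38.p6), Hoxb8 at chr11:96281655-96281904 on the plus strand and Hoxa5 at chr6:52204588-52204837 on the minus strand, 5′ to 3′. Capitals mark matches on either strand to 3 short motifs. The TATA box was searched as TATAAA. The box bound by the factor NF-Y was searched as CCAAT. A form of the site bound by Pbx together with Hox proteins was searched as TGATTNAT, where N is any base, and matches of different motifs were counted separately, overlapping or not.
Hoxb8: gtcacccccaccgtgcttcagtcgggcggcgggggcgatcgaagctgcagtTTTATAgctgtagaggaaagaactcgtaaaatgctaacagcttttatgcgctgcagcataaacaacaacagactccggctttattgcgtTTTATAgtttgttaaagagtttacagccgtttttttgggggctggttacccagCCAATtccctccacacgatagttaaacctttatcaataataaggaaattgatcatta
Hoxa5: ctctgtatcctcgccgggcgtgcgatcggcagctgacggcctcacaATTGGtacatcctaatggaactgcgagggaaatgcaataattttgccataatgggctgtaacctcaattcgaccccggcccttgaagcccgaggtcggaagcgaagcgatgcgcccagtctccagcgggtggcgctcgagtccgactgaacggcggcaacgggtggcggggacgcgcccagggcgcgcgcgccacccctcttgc
The Hoxb8 window held TATAAA, read on the opposite strand, and CCAAT, with 12 CpG, and the Hoxa5 window held CCAAT on the opposite strand, with 28 CpG, the highest count among the 13 members with a RefSeq promoter. Over these 13, TATAAA was found in 2 members and in 12.4% of all 32851 promoters, CCAAT in 7 and in 33.8%, and TGATTNAT in 1, Hoxa2, and in 2.82%. The median CpG count of the members was 12, beside 6 for all promoters. These matches describe letters in the window and not binding.

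Hoxb5, which acts in lung branching and in enteric neuron precursors, had 17.7, 16.5 and 16.8 CPM in Mll3 KO lungs, against 13.8, 15.8 and 14.4 CPM in wild-type lungs. The lowest Mll3 KO library lay just above the highest wild-type library. Its log2 fold change was 0.21 ± 0.10, with an adjusted p of 0.475 in edgeR's quasi-likelihood test with Benjamini-Hochberg adjustment. Hoxb4, known for its role in blood stem cells, had 24.2, 24.4 and 23.8 CPM in Mll3 KO lungs, against 20.01, 23.6 and 22.4 CPM in wild-type lungs, and Hoxb6 had 4.10, 3.86 and 4.01 CPM in Mll3 KO lungs, against 3.66, 3.01 and 3.76 CPM in wild-type lungs. The groups did not overlap in either gene, by a narrow gap, and the log2 fold changes were 0.13 and 0.20. Hoxb3, which with its paralogs patterns the neck and the thymus, had 37.2, 34.0 and 34.6 CPM in Mll3 KO lungs, against 28.6, 36.5 and 31.3 CPM in wild-type lungs. Hoxb2, which acts in the hindbrain, had 20.1, 19.3 and 21.5 CPM in Mll3 KO lungs, against 17.9, 18.9 and 20.1 CPM in wild-type lungs. Hoxb7 had 1.38, 1.57 and 1.77 CPM in Mll3 KO lungs, against 1.76, 1.31 and 1.32 CPM in wild-type lungs. The groups overlapped for these 3 genes, whose log2 fold changes were 0.13 for Hoxb3 and 0.10 for both Hoxb2 and Hoxb7.

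**Figure D4:**
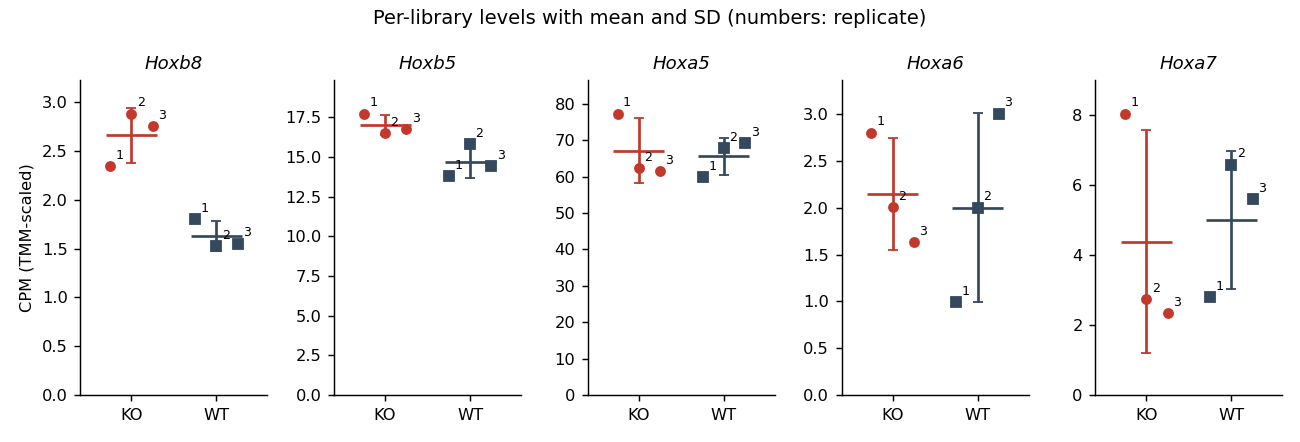
TMM-scaled CPM of Hoxb8, Hoxb5, Hoxa5, Hoxa6 and Hoxa7 in each library, with the mean and SD of each genotype and the replicate number beside each point. Hoxb8 and Hoxb5 separate the genotypes without overlap, and Hoxa5, Hoxa6 and Hoxa7 do not.

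For Hoxa5 itself no difference was found beyond the spread between libraries. It had 77.4, 62.4 and 61.5 CPM in Mll3 KO lungs, against 59.8, 67.8 and 69.3 CPM in wild-type lungs. Mll3 KO library 1 was the highest, wild-type library 1 the lowest, and the groups overlapped. The log2 fold change was 0.03 ± 0.10 (95% confidence interval −0.19 to 0.25), with an adjusted p of 0.943 in edgeR's quasi-likelihood test with Benjamini-Hochberg adjustment, so a change beyond 1.19-fold upward or 0.877-fold downward lies outside that interval. Without Mll3 KO library 1 the log2 fold change was −0.09. Hoxa2, which shapes the second pharyngeal arch, had 8.08, 6.85 and 6.25 CPM in Mll3 KO lungs, against 7.81, 6.32 and 6.35 CPM in wild-type lungs. Hoxa3, needed for the thymus and parathyroid, had 19.97, 20.5 and 19.2 CPM in Mll3 KO lungs, against 17.9, 19.8 and 18.9 CPM in wild-type lungs. Hoxa4, which acts in the neck vertebrae, had 7.24, 6.26 and 5.65 CPM in Mll3 KO lungs, against 6.68, 5.66 and 5.88 CPM in wild-type lungs. The groups overlapped for all 3, with log2 fold changes of 0.05 for Hoxa2, 0.08 for Hoxa3 and 0.07 for Hoxa4. Without both muscle-rich libraries these were 0.18 for Hoxa2, 0.019 for Hoxa3 and 0.16 for Hoxa4.

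Hoxa6 and Hoxa7, neighbours on the 5′ side of Hoxa5, varied most among the A cluster genes. Hoxa7 had 8.04, 2.74 and 2.33 CPM in Mll3 KO lungs, against 2.80, 6.58 and 5.60 CPM in wild-type lungs. Its highest and its lowest library were both Mll3 KO lungs, with wild-type library 1 close to the low ones. Hoxa6 had 2.80, 2.01 and 1.63 CPM in Mll3 KO lungs, against 0.99, 2.00 and 3.01 CPM in wild-type lungs, and again Mll3 KO library 1 was high and wild-type library 1 was low. The within-genotype coefficient of variation was 56.5% for Hoxa7, above 97.9% of genes whose mean CPM lay within 1.5-fold of its own, and 39.9% for Hoxa6, above 90.8% of them. Their log2 fold changes were −0.18 ± 0.57 and 0.11 ± 0.38. In the first title group the differences were 0.82 for Hoxa7 and 0.77 for Hoxa6, and in the second they were −1.01 and −0.60, so the sign differed between the title groups in both genes.

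The C and D cluster genes had few reads, and the 2 of them that were tested were highest in the libraries with skeletal muscle RNA. Hoxd8 had 0.71, 1.96 and 0.33 CPM in Mll3 KO lungs, against 3.30, 0.61 and 0.94 CPM in wild-type lungs. Hoxc4 had 0.25, 1.13 and 0.47 CPM in Mll3 KO lungs, against 1.04, 0.17 and 0.61 CPM in wild-type lungs. In both genes Mll3 KO library 2 and wild-type library 1 were the highest libraries, and the groups overlapped. Muscle genes were highest in the same libraries. Myod1, a muscle-determining factor, had 0, 20 and 0 reads in Mll3 KO lungs, against 53, 0 and 0 reads in wild-type lungs, and embryonic myosin Myh3 had 6, 2201 and 7 reads in Mll3 KO lungs, against 4225, 6 and 5 reads in wild-type lungs. All 8 skeletal muscle markers had reads in some library. Summed neuron and Schwann markers were also highest in Mll3 KO library 2 and wild-type library 1. The part of either tissue in the Hox values was not tested. The log2 fold change of Hoxd8 was −0.71 ± 0.85 with all libraries, −0.55 without those 2 and 0.35 without wild-type library 1 alone. For Hoxc4 it was −0.01 ± 0.67 with all libraries and −0.12 without those 2.

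**Figure D5:**
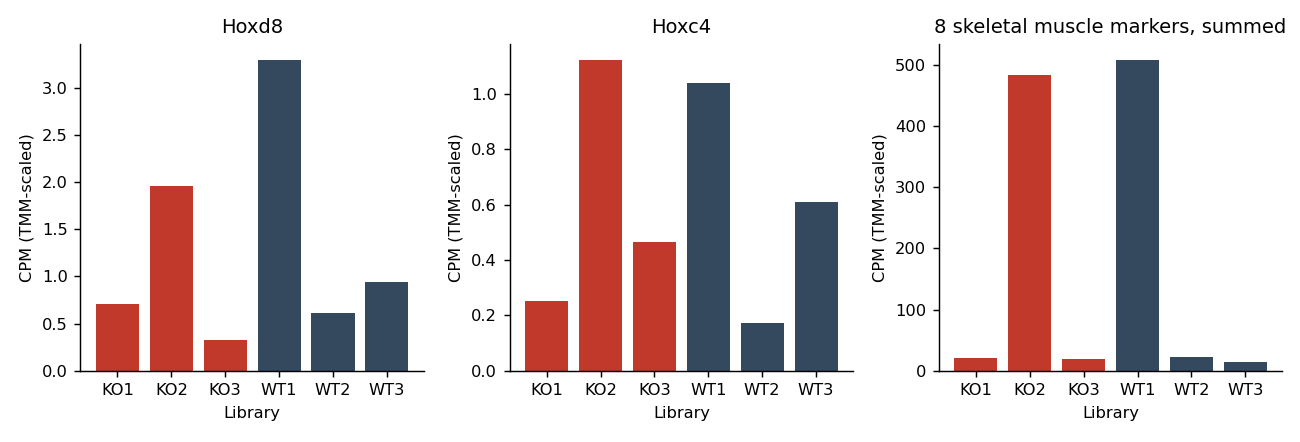
Level of Hoxd8 and Hoxc4 (TMM-scaled CPM) beside the summed CPM of the skeletal muscle markers in each library. Mll3 KO library 2 and wild-type library 1 are high in all of them.

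The 7 members below the test's read minimum were Hoxa9, Hoxb9, Hoxc5, Hoxc6, Hoxd3, Hoxd4 and Hoxd9. Hoxa9, which acts in blood progenitors and leukaemia, had 6, 9 and 5 reads in Mll3 KO lungs, against 2, 4 and 4 reads in wild-type lungs, so the groups did not overlap at these few reads. Hoxd9 had 10, 8 and 5 reads in Mll3 KO lungs, against 22, 6 and 10 reads in wild-type lungs. Hoxc6, which acts in the mammary gland and thoracic region, had 0, 1 and 0 reads in Mll3 KO lungs, against 7, 0 and 8 reads in wild-type lungs. Hoxc5, the third group 5 paralog, had 1, 4 and 5 reads in Mll3 KO lungs, against 11, 2 and 7 reads in wild-type lungs, and Hoxb9 had 4, 2 and 5 reads in Mll3 KO lungs, against 3, 1 and 1 reads in wild-type lungs. Except for Hoxa9, these groups overlapped. Hoxd3 had 1, 2 and 0 reads in Mll3 KO lungs, against 14, 1 and 0 reads in wild-type lungs. Hoxd4 had 3, 12 and 4 reads in Mll3 KO lungs, against 7, 1 and 1 reads in wild-type lungs. The highest library of Hoxd3 was wild-type library 1 and that of Hoxd4 was Mll3 KO library 2, the libraries with muscle RNA.

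Other transcripts inside the 4 clusters also gave no call. Of 46 annotated non-member genes there, 26 had no read and 11 were tested: Hotairm1, Hoxaas2, Hoxaas3, Gm15050, Gm29430, Gm27477 and 5730596B20Rik in the A cluster and Gm11539, Gm53, Hoxb5os and Hoxb3os in the B cluster. None had an unadjusted p below 0.05 in edgeR's quasi-likelihood test, where 10.7% of all tested genes did. Hotairm1, a non-coding RNA of the A cluster, had 2.84 ± 0.420 CPM in Mll3 KO lungs and 2.97 ± 0.445 CPM in wild-type lungs, a log2 fold change of −0.07. Gm29430 had the largest positive value, 0.42, and Gm27477 the lowest, −0.48. Antisense exons cover 52.9% of Hoxb3 and 27.3% of Hoxb2, and the counting used strand.

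Genes that act with the Hox proteins, or set or maintain their expression, were followed in companion lists. Regional and lung mesenchyme factors and genes flanking the clusters were added, making 6 lists. None of the 80 tested genes of these lists passed the test, where 0.368% of all tested genes did. At that share, 0 calls among 80 does not set these lists apart. TALE homeodomain cofactors of Hox proteins, such as Meis1, gave 0 calls among 9 tested. Pknox2 had the smallest p of these, with 20.1 ± 0.650 CPM in Mll3 KO lungs and 24.8 ± 3.55 CPM in wild-type lungs and an adjusted p of 0.329, while Meis3, Meis1 and Pbx4 had log2 fold changes of 0.22, 0.07 and −0.10. Trithorax-type and MLL1/2 complex genes, a list that also held Kmt2c and Kmt2d, gave 0 calls among 15. Log2 fold changes were 0.11 for Ash2l, 0.10 for Men1 and 0.10 for Kmt2a. Kmt2d, the closest paralog of Kmt2c, had 270 ± 40.2 CPM in Mll3 KO lungs and 263 ± 27.2 CPM in wild-type lungs, a log2 fold change of 0.04.

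Polycomb genes gave 0 calls among 20 tested. Their median log2 fold change was 0.07, and 18 values were positive, where 52.6% of all genes had a positive one. In the trithorax-type and MLL1/2 list 13 of 15 were positive, with a median of 0.06. Positive values numbered 6 of 9 for TALE cofactors and 7 of 15 for retinoic acid genes. They numbered 4 of 8 for regional factors and 5 of 13 for flanking genes. Cbx2, a Polycomb subunit that binds methylated histone H3, had 29.0, 27.0 and 26.2 CPM in Mll3 KO lungs, against 19.2, 21.9 and 21.3 CPM in wild-type lungs. All Mll3 KO libraries lay above all wild-type libraries, with a log2 fold change of 0.40 ± 0.09 and an adjusted p of 0.112 in edgeR's quasi-likelihood test with Benjamini-Hochberg adjustment. In edgeR with no filter on low counts the adjusted p was 0.0272, and 103 genes were called higher and 340 lower of 34615 tested. It was 0.0495 in DESeq2, which called 2.12% of its genes. In edgeR with the title group as a term it was 0.0368, and 3.28% of all genes were called. Cbx2 was not called under the other alternatives, among them limma voom, other scaling, a stricter filter and each library left out. Bmi1 (0.19), Pcgf2 (0.15) and Ezh2 (0.23) followed with adjusted p values of 0.381, 0.502 and 0.528 in the edgeR test with genotype as the only term.

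Values of the last 3 lists are log2 fold changes. Retinoic acid pathway genes, which set early Hox expression, gave 0 calls among 15 tested, with Rxrb at 0.12, Aldh1a1 at −0.48, Rarg at 0.08 and Rara at −0.10. Regional and lung mesenchyme factors gave 0 among 8, with Foxf2 at −0.14, Foxf1 at 0.07, Tbx3 at −0.08 and Tbx5 at 0.06, and Cdx4, Pdx1 and Evx1 had 0 reads. Genes flanking the clusters gave 0 among 13, with Calcoco2 at −0.96 (adjusted p 0.419 in the edgeR quasi-likelihood test), Lnpk at 0.15, Ttll6 at −0.38 and Cbx5 at 0.11. With the title group as a term, Ttll6 had a log2 fold change of −0.61 and an adjusted p of 0.015 in edgeR's quasi-likelihood test.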

How the data were processed

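Strand-specific libraries of poly(A)-selected RNA were sequenced as single 75-base reads, per the labels' protocols. Tools named in the submitters' processing notes are bcl2fastq 2.19.1, GSNAP, featureCounts 1.6.3 and DESeq2 1.24.0, on build mm10. The counts in the deposited featureCounts table are raw and per gene, taken on the reverse strand (setting 2) from reads with mapping quality 1 or more, per the file headers, and the annotation is Ensembl release 98 by its name. Its 55513 rows include 92 ERCC spike-in names with 1 read in all, which were left out. The deposited normalized signal has 24521 genes, of which 99.988% to 100% per library equalled the count divided by 1 factor for that library within 0.06, and it supplied symbols and biotypes only.

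Members were chosen by symbol and biotype, and the members and lists were chosen with earlier results of these data known. Genotype came from the labels, and replicate numbers follow accession order. Nothing says how the lungs relate to litters, so the p-values rest on the spread among these samples, which may be technical. Libraries of 1 genotype differed by more than counting noise (chi-square per degree of freedom 9.34 to 23.3). edgeR 4.0.16 (R 4.3.3; TMM, filterByExpr, robust quasi-likelihood test, genotype as the only term) tested 19042 genes at a Benjamini-Hochberg adjusted p below 0.05. The SE is the absolute log2 fold change over the square root of F. TPM was computed from the counts and the exon lengths of the table. Alternatives were DESeq2 1.42.0, limma voom (limma 3.58.1), other scaling, no filter, a filter of 1 CPM in 3 libraries, a term for the number that starts the sample title, a threshold of 0.10 and each library left out. Named were all members but 1, which is not reported here, the tested genes inside the clusters, the 4 lowest-p genes of each list, Kmt2c and Kmt2d, while markers of muscle, fibroblasts and cartilage and genes with 0 reads were named outside this rule. Scripts were tested on simulated data. Sequences come from the GENCODE M21 transcripts and RefSeq promoters.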

Additional observations from a re-analysis of the deposited data

How the results depend on the processing

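The count of Hox members called was 0 in each direction under every alternative run, including a threshold of 0.10. The median log2 fold change of the tested members, 0.10, ran from 0.092 to 0.15 when each library was left out. Counts over all genes moved more. Higher and lower in Mll3 KO lungs were 103 and 340 genes with no filter, 60 and 289 in DESeq2, 0 and 8 in limma voom, 142 and 483 with the title group in the model, and 33 and 135 at a threshold of 0.10. Leaving out each library gave 0 to 5 higher and 0 to 36 lower. Leaving out Mll3 KO library 2 and wild-type library 1 together, an alternative chosen after seeing the data, gave 1 higher and 8 lower. The cause of these shifts was not tested. Genes of the 6 companion lists called numbered 0, but 1 with no filter, 1 in DESeq2 and 2 with the title group in the model.

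Signs turned among members with small or noisy log2 fold changes. Leaving out each library gave −0.064 to 0.16 for Hoxa2, −0.033 to 0.15 for Hoxa4, −0.087 to 0.088 for Hoxa5, −0.22 to 0.51 for Hoxa6, −0.98 to 0.12 for Hoxa7, −0.76 to 0.63 for Hoxc4 and −1.61 to 0.35 for Hoxd8. The sign turned without Mll3 KO library 1 in Hoxa2, Hoxa4, Hoxa5, Hoxa6 and Hoxc4, and without wild-type library 1 in Hoxa5, Hoxa6, Hoxc4 and Hoxd8. It also turned in Hoxa2 without wild-type library 2 or 3, in Hoxc4 without Mll3 KO library 3, and in Hoxa7 without Mll3 KO library 2, Mll3 KO library 3 or wild-type library 2. Hoxa6 had −0.16 without the 2 muscle-rich libraries. Hoxc4 had 0.028 with scaling by library size, 0.000122 in DESeq2 and 0.051 in limma voom. Hoxc4 and Hoxd8 gave no value under the stricter filter. No paired analysis was possible because the labels give no replicate numbers that match single lungs across genotypes, and the title group, which holds both genotypes, entered as a model term instead. Depth limits the members below 1 CPM most.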
